A study of Mus musculus with 4 samples.

Results

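Cxcl13, Tnfsf13b, Il7, Il15, Flt3l and Tslp encode secreted factors that attract lymphoid cells or keep them alive, and these 6 genes, taken by symbol from 32285 gene features, were followed through mouse femur stroma and endothelium. All mice carried the Rag2-/-gammac-/- genotype on C57BL/6, so every group lacked its own mature lymphocytes and the shared gamma chain through which Il7 and Il15 signal. The groups were Graft_D40, 40 days after DOHH2 cells were grafted into the femur, Sham_D40, 40 days after PBS, Graft_D19, 19 days after DOHH2 cells, and Ctrl, ungrafted and with no day in the labels, which give no ages. DOHH2 is a human follicular lymphoma B-cell line, so each graft is a xenograft of 1 established line in a host that cannot mount a lymphocyte response. Each group was 1 single-cell library (10x Genomics 3' chemistry), made after depletion of Cd45+ and Ter119+ cells and sorting of Cd31- Cd51+ Cd200+ stroma and Cd31+ Sca1+ endothelium. The number of mice behind a library is not given in the labels, the sort can set the shares of classes, and differences between libraries have no replicate check. Intervals below are exact 95% intervals that cover counting error only.

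Cxcl13 is the chemokine that draws Cxcr5+ B cells into lymphoid follicles, where follicular dendritic and marginal reticular cells are its usual source. Tnfsf13b (BAFF) is a survival factor for mature B cells. Il7 drives early B and T cell development and is made in marrow by the perivascular LepR+ stroma that also makes Cxcl12 and Kitl. Il15 sustains NK cells and memory T cells, Flt3l drives dendritic cell and early lymphoid progenitors, and Tslp, best known from epithelium, signals through Crlf2 and Il7r.

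In the annotation GENCODE vM21 for mm10, Cxcl13 (ENSMUSG00000023078) spans bases 95956951 to 95961068 of chromosome 5, and Tnfsf13b (ENSMUSG00000031497) bases 10006467 to 10039072 of chromosome 8. Il7 (ENSMUSG00000040329) lies at 7569994 to 7613760 of chromosome 3, Il15 (ENSMUSG00000031712) at 82331632 to 82403222 of chromosome 8, Flt3l (ENSMUSG00000110206) at 45129788 to 45136432 of chromosome 7, and the sixth gene is Tslp (ENSMUSG00000024379). Il7 is overlapped by the antisense gene Gm16685, and no source used here says whether counting used strand, so reads of the pair may not be told apart.

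The promoters of 2 genes are shown because their per-cell distributions differ, Cxcl13 being held by very few LepR-like cells and Flt3l spread over many. They are the 250 bases before the RefSeq start site in GRCm38.p6, 5′ to 3′ on the gene's strand, with the motif found by letter search in capitals.
Cxcl13 (chr5:95956689-95956938, plus strand): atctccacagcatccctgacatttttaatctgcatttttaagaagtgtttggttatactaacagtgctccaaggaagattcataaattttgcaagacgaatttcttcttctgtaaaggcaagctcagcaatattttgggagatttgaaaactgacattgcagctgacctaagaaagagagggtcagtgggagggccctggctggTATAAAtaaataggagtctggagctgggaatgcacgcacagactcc
Flt3l (chr7:45136433-45136682, minus strand): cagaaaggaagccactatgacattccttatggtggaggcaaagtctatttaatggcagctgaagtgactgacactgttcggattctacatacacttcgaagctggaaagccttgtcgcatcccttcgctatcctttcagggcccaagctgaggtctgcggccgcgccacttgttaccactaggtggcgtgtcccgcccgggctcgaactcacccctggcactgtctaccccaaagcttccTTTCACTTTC
The capitals in Cxcl13 mark the TATA box letters TATAAA, which begin 46 bases before the start, and those in Flt3l mark an interferon response motif, GAAA and GAAA with any 2 bases between, read on the opposite strand and ending at the start. Both strands were searched in windows reaching 50 bases past the start. TATAAA was found in 13.6% and the interferon motif in 3.44% of 32851 mouse promoters of that length, and an NF-kappaB motif, GGGA and TTCC with any 2 bases between, found in 1.47%, was in neither window. RefSeq promoter entries matched 3 of the 6 genes. The third was Tnfsf13b, where the interferon motif was also found, beginning 16 bases before a listed start. Whether these motifs bear on the per-cell distributions was not tested.

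Cells were classed one by one with fixed marker lists, and "-like" below refers to those lists. Gene UMIs numbered 72204599 in Graft_D40 and 51744386 in Sham_D40, and 63214301 in Graft_D19 and 18533482 in Ctrl. Per barcode, median depth was 7021.5 UMIs (unique molecules) in Graft_D40, 7376.5 in Sham_D40, 5187 in Graft_D19 and 2506 in Ctrl, so Ctrl is the shallowest library, and 4867, 4527, 4813 and 4074 cells were kept in that order of libraries. LepR-like cells numbered 1067 in Graft_D40, 2063 in Sham_D40, 1663 in Graft_D19 and 1674 in Ctrl, and endothelial-like cells 1227, 1210, 1309 and 1414. Adipoq, Esm1, Hp, Lpl and Cxcl12 were among the 10 leading genes of the LepR-like class and 12 of its 12 markers reached 2-fold over all remaining cells. Within it, cells with the higher score for matrix genes (Col8a1, Postn, Tnc and 7 others) are called matrix-high and the rest adipogenic-high (Adipoq, Lpl, Kitl and 7 others), which is a range and not a pair of cell types. The libraries also differ in clusters (Leiden) whose best match is the LepR-like list. These counts cover all kept cells of any marker class, unassigned ones too. The cluster led by Cxcl13, Heyl and Col8a1 held 1171 Graft_D40, 57 Sham_D40, 773 Graft_D19 and 23 Ctrl cells. In it 4 of the 12 LepR-like markers were raised. A cluster with Ccl19 and Hp among its leading genes held 1146 Ctrl cells of 1176. The 2 clusters with most Sham_D40 cells held 788 and 692 of them. Values of the LepR-like class may therefore compare differently placed cells, and the part of this in the member levels was not tested. Matrix-high cells made up 89.8% of LepR-like cells in Graft_D40 and 16.7% in Sham_D40, and 53.2% in Graft_D19 and 27.8% in Ctrl, with 61, 226, 186 and 238 cells within 0.1 score units of the split. Any 2 libraries shared 11 to 15 cell barcodes. Of the deleted genes, Il2rg had 0.893 CPM (UMIs per 1000000 UMIs of the class) and Rag2 7.93 CPM in LepR-like cells of Graft_D40, and 3' counts do not check a deletion outside the counted end.

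The 6 genes divided by source. Cxcl13 and Il7 came mostly from LepR-like cells, Il15, Flt3l and Tslp from LepR-like cells together with endothelium, and Tnfsf13b was scarce in every stromal class. LepR-like cells held 77.4% of all Cxcl13 UMIs in Graft_D40 and 97.8% in Sham_D40, and 92.4% in Graft_D19 and 94.1% in Ctrl. For Il7 the same shares were 71.5% in Graft_D40 and 91.6% in Sham_D40, and 85.9% in Graft_D19 and 86.8% in Ctrl. Endothelial-like cells held 0.6 to 0.9% of Il7 UMIs, 9.2 to 25.9% of Il15, 15.8 to 27.6% of Flt3l and 20.0 to 23.9% of Tslp UMIs over the 4 libraries. Since LepR-like cells were fewer in Graft_D40 in this sort, the shares move with cell numbers as well as with level per cell.

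**Figure D1:**
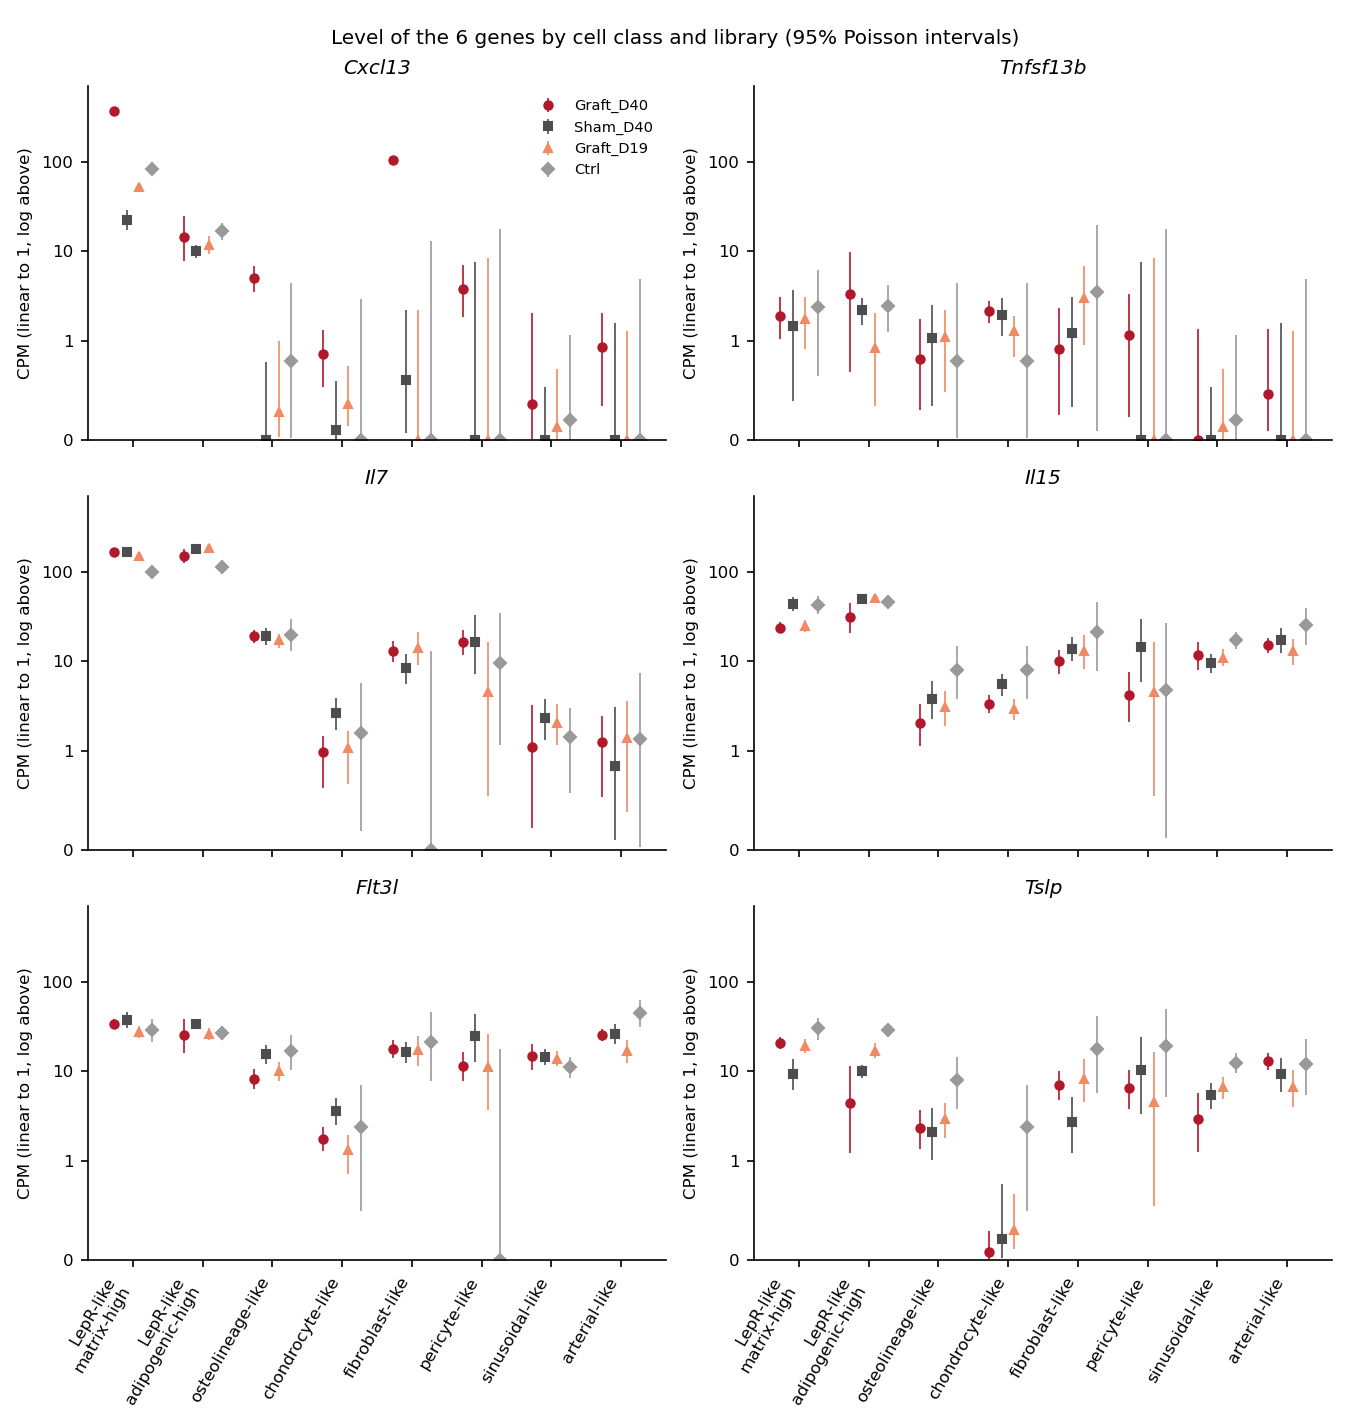
Level of each gene in CPM of the class (vertical axis, linear to 1 and logarithmic above) in 8 classes, 1 point per library with its 95% Poisson interval. Cxcl13 in matrix-high cells of Graft_D40 reached 369 CPM, Il7 stayed between 99.8 and 184 CPM in both LepR-like subsets, and Tnfsf13b was below 5 CPM throughout the plot.

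For counting members, a gene counted as measured if it averaged at least 5 CPM over both libraries, and it was called when its ratio was 1.5-fold or more with an interval off 1. In LepR-like cells 5 of the 6 were measured, Tnfsf13b being too low. For Graft_D40 over Sham_D40, 2 of 5 were higher (Cxcl13 and Tslp) and 1 was lower (Il15), where 6.46% of 10576 genes were called higher and 3.73% lower. For Graft_D19 over Ctrl, 1 was higher (Il7) and 1 lower (Tslp), against 28.7% of 10419 genes called higher and 8.63% lower. For Sham_D40 over Ctrl, both ungrafted, 1 was higher (Il7) and 2 were lower (Cxcl13 and Tslp), against 26.5% and 10.7% of 10410 genes. These last 2 comparisons share the Ctrl library. For Graft_D40 over Ctrl, 1 was higher (Cxcl13) and 2 were lower (Il15 and Tslp), against 32.9% and 10.4% of 10497 genes. For Graft_D19 over Sham_D40, 2 were higher (Cxcl13 and Tslp) and none lower, against 2.17% and 1.95% of 10536 genes. Ratios to Ctrl thus carry a general shift, the median log2 ratio of all genes tested being 0.28 for Graft_D19, 0.24 for Sham_D40 and 0.31 for Graft_D40, against 0.08 for Graft_D40 over Sham_D40. Over the 5 measured genes the median log2 ratio was -0.07 for Graft_D40 over Sham_D40, -0.06 for Graft_D19 over Ctrl and 0.13 for Sham_D40 over Ctrl.

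**Figure D2:**
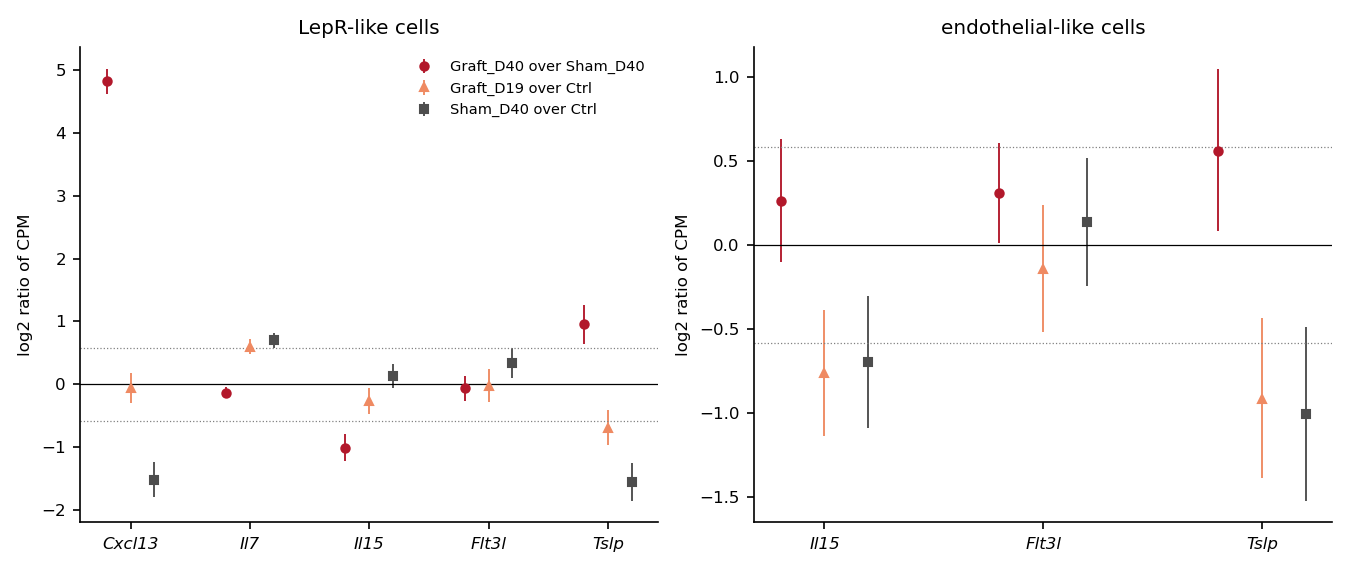
Log2 ratios of CPM with 95% intervals for the measured genes in LepR-like cells (left) and endothelial-like cells (right); dotted lines mark 1.5-fold in each direction. Cxcl13 at 4.82 for Graft_D40 over Sham_D40 stands far above the other points, and Tslp is at 0.95 in that comparison but below 0 in both comparisons with Ctrl.

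Cxcl13 stood at 333 CPM in LepR-like cells of Graft_D40 (2984 UMIs), against 11.8 CPM in Sham_D40 (222 UMIs), and at 32.3 CPM in Graft_D19 (428 UMIs), against 33.7 CPM in Ctrl (224 UMIs). The Graft_D40 level was 28.3-fold that of Sham_D40 (24.7 to 32.6) and 9.89-fold that of Ctrl (8.63 to 11.4). Intervals of Cxcl13 levels and ratios, here and below, treat each UMI as independent. Few cells held most of its UMIs, so these intervals are too narrow to cover the spread between cells. Graft_D19 and Ctrl differed by less than counting error (ratio 0.96, 0.81 to 1.13), but Graft_D19 was 2.74-fold Sham_D40 (2.33 to 3.24), and Sham_D40 was 2.86-fold lower than Ctrl. So the 2 ungrafted libraries differed from each other in this gene, while Graft_D40 lay above both of them and above Graft_D19.

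The share of LepR-like cells with at least 1 Cxcl13 UMI was 10.2% in Graft_D40 and 3.01% in Sham_D40, and 3.49% in Graft_D19 and 2.69% in Ctrl. After thinning each cell to 2000 UMIs the shares were 5.27% (4.0 to 6.81%) in Graft_D40 and 1.34% (0.883 to 1.94%) in Sham_D40, and 1.67% in Graft_D19 and 2.04% in Ctrl. That left out 24 Graft_D40, 44 Sham_D40, 47 Graft_D19 and 253 Ctrl cells below 2000 UMIs. Both parts of the level were higher in Graft_D40 at matched depth: 55 thinned cells held 471 Cxcl13 UMIs in Graft_D40, against 43 UMIs in 27 cells of Sham_D40. Graft_D19 had 96 UMIs in 27 cells and Ctrl 92 UMIs in 29 cells. Endothelium, which should lack the gene, had Cxcl13 in 0.652% of unthinned cells in Graft_D40, 0 of 1210 in Sham_D40 (the limit on its level is 3 UMIs, 0.317 CPM), 0.0764% in Graft_D19 and 0.0707% in Ctrl. Its median depth in Graft_D40 was 7333 UMIs, against 7903 in LepR-like cells.

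By subset, Cxcl13 in matrix-high cells was at 369 CPM in Graft_D40 (2971 UMIs) and 22.4 CPM in Sham_D40 (62 UMIs), a ratio of 16.5 (12.8 to 21.5). In that subset and comparison 2 of 5 were higher (Cxcl13 and Tslp) and 1 lower (Il15), against 6.97% of 10612 genes higher and 5.14% lower. It was at 51.8 CPM in matrix-high cells of Graft_D19 (352 UMIs) and 83.8 CPM in those of Ctrl (141 UMIs), 1.62-fold lower in Graft_D19, where 25.9% of 10506 genes were called higher and 10.3% lower. In adipogenic-high cells the gene was at 14.4 CPM in Graft_D40 (13 UMIs) and 9.94 CPM in Sham_D40 (160 UMIs), and at 11.8 CPM in Graft_D19 and 16.7 CPM in Ctrl. Within a library, matrix-high cells had 25.6 times the Cxcl13 level of adipogenic-high cells in Graft_D40 (15.0 to 48.1), 2.26 times in Sham_D40, 4.40 times in Graft_D19 and 5.01 times in Ctrl. By level, Cxcl13 was thus on the matrix-high side in all 4 libraries. In Sham_D40, however, the more numerous adipogenic-high cells held 70.5% of the library's Cxcl13 UMIs. They were also 4 of its 5 cells with 10 or more. Of the 62 matrix-high UMIs in Sham_D40, 21 lay in 1 cell. The part of a shift along the range from adipogenic-high to matrix-high in the difference between Graft_D40 and Sham_D40 was not tested.

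**Figure D3:**
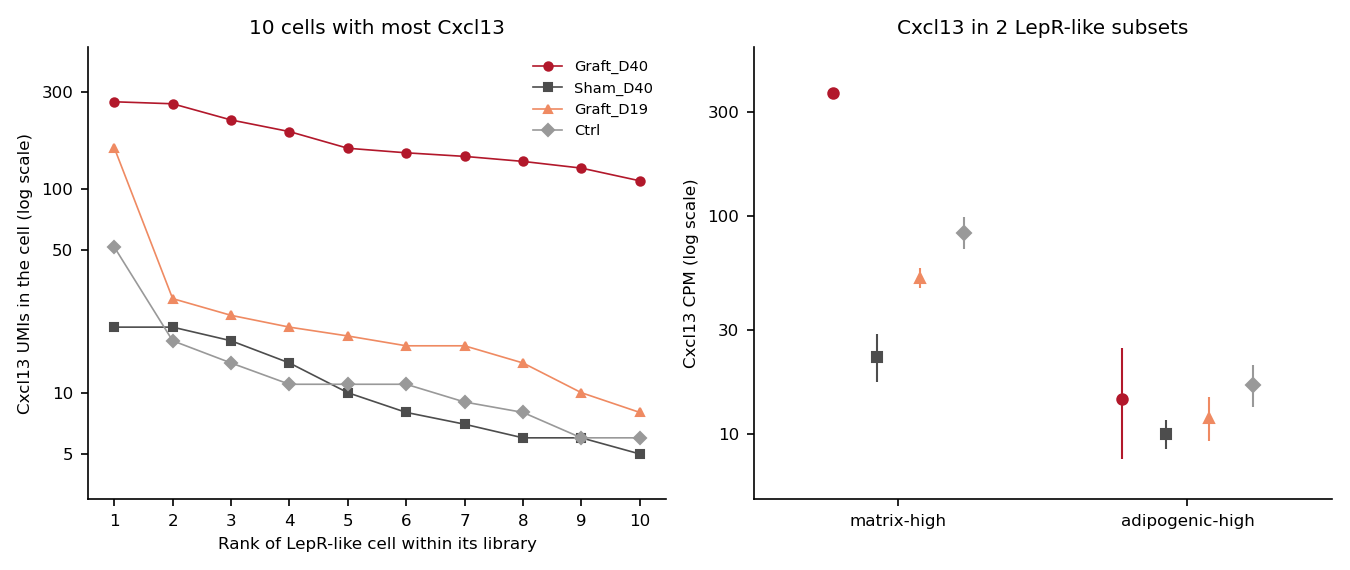
Left, Cxcl13 UMIs (log scale) in the 10 LepR-like cells with most of them in each library. Right, Cxcl13 CPM (log scale, 95% Poisson intervals) in the matrix-high and adipogenic-high subsets. The 10 cells of Graft_D40 hold 110 to 269 UMIs each, while 1 cell of Graft_D19, at 160 UMIs, is the only other cell shown above 52.

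Cxcl13 was held by very few cells. In Graft_D40, 41 of 1067 LepR-like cells had 10 or more Cxcl13 UMIs, and these 41 cells, all matrix-high, held 95% of the gene's LepR-like UMIs. Of all LepR-like cells of Graft_D40, 89.8% were matrix-high, so most of any 41 would be. The same threshold, chosen after the levels were seen and not depth-matched, was met by 5 cells in Sham_D40, 9 in Graft_D19 and 6 in Ctrl. Outside the 41 cells the remaining 1026 LepR-like cells of Graft_D40 had 149 UMIs together, or 17.6 CPM. The cell with most had 269 UMIs of 17610 in Graft_D40, 21 in each of 2 cells of Sham_D40, 160 of 14224 in Graft_D19 and 52 of 5955 in Ctrl. At a matched 2000 UMIs, 32 LepR-like cells of Graft_D40 and 5 of Sham_D40 kept 3 or more Cxcl13 UMIs, and 9 of Graft_D19 and 12 of Ctrl.

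The 10 cells with most Cxcl13 held 59.4% of its LepR-like UMIs in Graft_D40 and 52.3% in Sham_D40, and 74.5% in Graft_D19 and 65.2% in Ctrl. The fewest cells that held 50% of the UMIs numbered 8 in Graft_D40, 9 in Sham_D40, 4 in Graft_D19 and 6 in Ctrl, so the skew was present in every library at every level. Leaving these 10 cells out gave 138 CPM for Graft_D40 and 5.66 CPM for Sham_D40, and 8.27 CPM in Graft_D19 and 11.8 CPM in Ctrl. In Graft_D19 a single cell decided the level: without it Cxcl13 was at 20.2 CPM, against 25.9 CPM in Ctrl without its own top cell. The Fano factor of thinned counts, variance over mean and 1 for evenly scattered counts, was 20.8 in Graft_D40 and 2.14 in Sham_D40, and 10.2 in Graft_D19 and 7.85 in Ctrl. For skewed counts it rises with the mean, which was 0.452 in Graft_D40 and 0.0213 in Sham_D40. By share Graft_D40 was not the most concentrated. The 1% of cells with most Cxcl13 held 63.0% of its unthinned UMIs there and 74.3% in Sham_D40, and 83.6% in Graft_D19 and 80.8% in Ctrl.

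**Figure D4:**
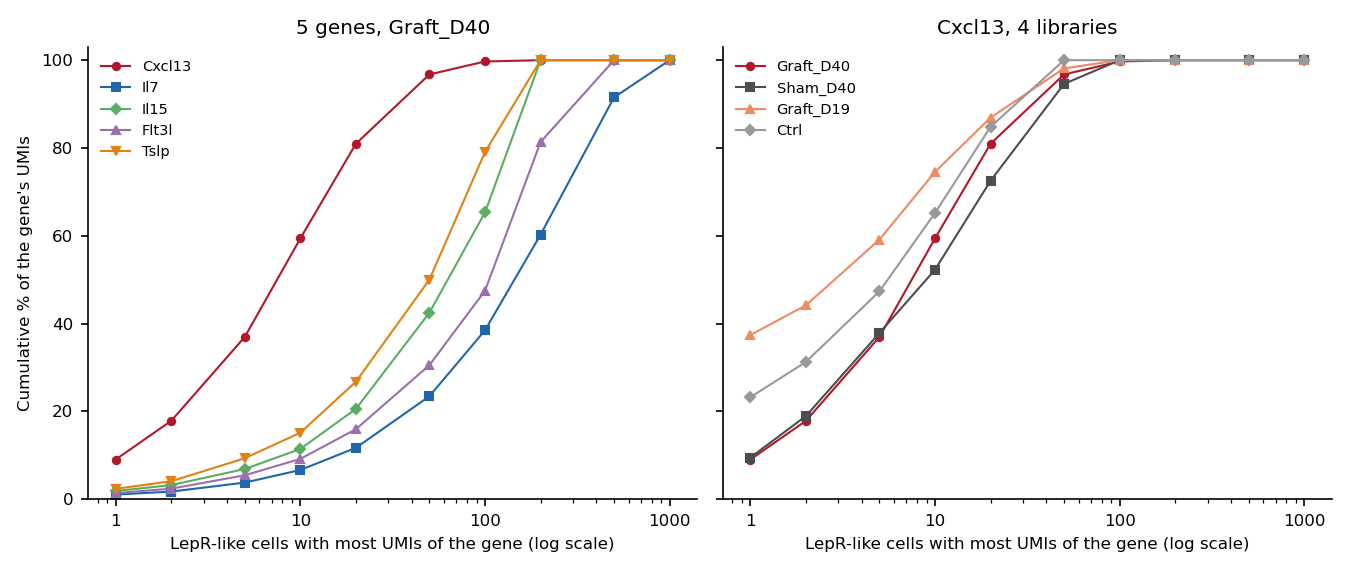
Cumulative percent of a gene's UMIs in LepR-like cells (vertical axis) held by the cells with most of them (horizontal axis, log scale), for 5 genes in Graft_D40 (left) and for Cxcl13 in each library (right). At 10 cells the Cxcl13 curve of Graft_D40 stands at 59.4% and that of Il7 at 6.63%, and all 4 Cxcl13 curves pass 50% by 10 cells.

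In LepR-like cells none of the other measured genes was concentrated in this way. Fano factors lay between 1.14 and 1.19 for Il7, 1.01 and 1.13 for Il15, 0.99 and 1.06 for Flt3l, and 0.99 and 1.16 for Tslp over the libraries. In Graft_D40 the fewest LepR-like cells holding 50% of UMIs numbered 150 for Il7, 67 for Il15, 108 for Flt3l and 50 for Tslp. Outside that class, 1 fibroblast-like cell of Graft_D40 held 16 of the 31 Tslp UMIs of its class.

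Beyond LepR-like stroma, Cxcl13 in Graft_D40 was seen in fibroblast-like cells at 105 CPM (459 UMIs), against 0.601 CPM in Sham_D40 (2 UMIs), where 10.4% of 10486 genes were called higher in that class and 7.78% lower. Of those 459 UMIs, 382 lay in 1 cell of 24245 UMIs, and without it the level was 17.6 CPM. No UMI was found in fibroblast-like cells of Graft_D19 or Ctrl (the limit set by 3 UMIs is 1.78 CPM in Graft_D19 and 10.6 CPM in Ctrl). Osteolineage-like cells were at 5.00 CPM in Graft_D40 (37 UMIs), listed at 0 in Sham_D40, 0.277 CPM in Graft_D19 and 0.795 CPM in Ctrl. Of the 37 UMIs in Graft_D40, 25 lay in 1 cell. In chondrocyte-like, sinusoidal-like and arterial-like cells the gene did not exceed 0.931 CPM in any library.

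Genes higher in LepR-like cells with a Cxcl13 UMI than in those without, ranked by their smallest ratio over the 4 libraries, were led by Fndc1, Qpct, Sfrp1, Slc36a2, Limch1, Chl1, Col8a1, Scp2, Pdzrn4 and Tpm2. Fndc1, a fibronectin type III domain protein gene, was at 281 CPM in cells with and 101 CPM in cells without a Cxcl13 UMI in Graft_D40, and at 92.0 and 21.1 CPM in Sham_D40. Sfrp1, a secreted Wnt antagonist, was at 398 and 181 CPM in Graft_D40, and at 447 and 169 CPM in Sham_D40. Col8a1, a collagen chain and itself one of the matrix-high markers, was at 2017 and 1254 CPM in Graft_D40. Cells with a Cxcl13 UMI were deeper in every library, with medians of 10705 against 7656.5 UMIs in Graft_D40 and 11598 against 8721 UMIs in Sham_D40, and the part of depth in these ratios was not tested.

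Of the lymphoid stroma list, the 41 Cxcl13-high cells of Graft_D40 had Tnfsf11 (RANKL, the osteoclast and lymphoid organiser cytokine) at 228 CPM (114 UMIs), against 126 CPM in the other LepR-like cells. Igf1 was at 675 CPM against 442 CPM and Il7 at 200 CPM (100 UMIs) against 161 CPM. Kitl was lower, at 912 CPM against 1299 CPM, and Vcam1 was higher, at 1650 CPM against 1416 CPM. Both are adipogenic-high markers and the 41 cells were all matrix-high, so these 2 levels are not independent of that split. Most of the other LepR-like cells were matrix-high too, and the 2 genes went in opposite directions. Cxcl12 hardly differed, at 23957 CPM against 24511 CPM. Ccl19, the Ccr7 ligand of T-zone stroma, was at 57.9 CPM (29 UMIs) against 50.6 CPM. Madcam1 and Pdpn, which with Cxcl13 mark marginal reticular or lymph node stroma, and Cr2, a follicular dendritic cell marker, had 0, 0 and 1 UMI in the 41 cells, where 3 UMIs correspond to 5.99 CPM. The other 1026 cells held 0 Madcam1 and 2 Pdpn UMIs, so these genes did not set the 41 cells apart. Cr2 was at 2.00 CPM there, against 8.87 CPM in the other LepR-like cells. The interferon-induced Cxcl10 had 1 UMI there (2.00 CPM), against 45.4 CPM in the other LepR-like cells. The 41 cells were few and deeper, at a median of 12239 against 7774 UMIs. The part of either in these differences was not tested.

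Il7 had the highest level of the 6 genes in LepR-like cells of every library but Graft_D40, where Cxcl13 was higher. It was at 163 CPM in LepR-like cells of Graft_D40 (1464 UMIs) and 179 CPM in Sham_D40 (3381 UMIs), and at 167 CPM in Graft_D19 (2215 UMIs) and 110 CPM in Ctrl (734 UMIs). Ctrl lay below the other libraries. Graft_D40 over Sham_D40 was 0.91 (0.86 to 0.97), Graft_D19 over Ctrl 1.51 (1.39 to 1.65) and Sham_D40 over Ctrl 1.62 (1.5 to 1.76). Graft_D19 over Ctrl was 0.60 on the log2 scale, against a median over all genes of 0.28, and the call rests on that comparator: Graft_D19 over Sham_D40 was -0.10. The share of LepR-like cells with an Il7 UMI was 58.5% in Graft_D40 and 64.4% in Sham_D40, and 54.8% in Graft_D19 and 30.4% in Ctrl. Thinned, it was 23.1% in Graft_D40 and 27.8% in Sham_D40, and 25% in Graft_D19 and 17.5% in Ctrl.

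Unlike Cxcl13, Il7 did not follow the matrix split. Matrix-high cells were at 165 CPM and adipogenic-high cells at 151 CPM in Graft_D40, and at 168 and 181 CPM in Sham_D40, ratios of 1.09 (0.92 to 1.31) and 0.93 (0.84 to 1.02). Graft_D19 had the ratio furthest from 1, 0.82 (0.75 to 0.89), and Ctrl was at 0.87 (0.73 to 1.04). Among the sorted stromal and endothelial classes osteolineage-like cells came next after LepR-like cells, at 18.9 CPM in Graft_D40 and 19.1 CPM in Sham_D40, and 17.1 CPM in Graft_D19 and 19.9 CPM in Ctrl. The 29 haematopoietic-like cells of Ctrl were higher, at 35.1 CPM (12 UMIs). Endothelial-like cells had 1.11 to 2.22 CPM.

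Il15 was lower in LepR-like cells of Graft_D40, at 24.5 CPM (219 UMIs), against 49.2 CPM in Sham_D40 (929 UMIs), 2.01-fold lower. It was at 37.4 CPM in Graft_D19 (496 UMIs) and 45.0 CPM in Ctrl (299 UMIs), a ratio of 0.83 (0.72 to 0.96) that was not called. Against Ctrl, Graft_D40 was 1.84-fold lower, so Graft_D40 lay below both ungrafted libraries. At day 19 Il15 was called in matrix-high cells, which had 25 CPM in Graft_D19 (170 UMIs) and 42.8 CPM in Ctrl (72 UMIs), 1.71-fold lower. Adipogenic-high cells had 50.4 CPM in Graft_D19 and 45.7 CPM in Ctrl. Within Graft_D19 the matrix-high level was 0.50 times the adipogenic-high level (0.41 to 0.60), while the same ratio was 0.87 (0.71 to 1.06) in Sham_D40 and 0.93 (0.71 to 1.22) in Ctrl. In Graft_D40 both subsets were lower than in Sham_D40, at 23.7 against 43.8 CPM in matrix-high cells and at 31.0 (28 UMIs) against 50.2 CPM in adipogenic-high cells. Il15 was the 1 gene of 5 called lower in that second subset and none was higher, against 2.38% of 10500 genes lower and 3.76% higher.

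Of the 5 measured genes, Flt3l had the narrowest range over libraries in LepR-like cells. LepR-like cells had 32.9 CPM in Graft_D40 (295 UMIs) and 34.5 CPM in Sham_D40 (651 UMIs), and 27.0 CPM in Graft_D19 (358 UMIs) and 27.4 CPM in Ctrl (182 UMIs). The ratios were 0.95 (0.83 to 1.10) for Graft_D40 over Sham_D40 and 0.99 (0.82 to 1.18) for Graft_D19 over Ctrl. It was also seen outside LepR-like stroma: fibroblast-like cells were at 16.5 to 21.2 CPM over the libraries, and arterial-like cells at 25.6 CPM in Graft_D40 and 26.3 CPM in Sham_D40, and 16.7 CPM in Graft_D19 and 45.4 CPM in Ctrl. Arterial-like cells had 1.75 times the sinusoidal-like level in Graft_D40 (1.23 to 2.54), 1.81 times in Sham_D40 (1.30 to 2.51), 1.21 times in Graft_D19 (0.84 to 1.72) and 4.09 times in Ctrl (2.58 to 6.40). The label is set by score, and in every library most arterial-like cells lay outside the cluster led by Sema3g, Gja5 and Gja4. Osteolineage-like cells were at 8.25 CPM in Graft_D40 (61 UMIs), against 15.5 CPM in Sham_D40 (73 UMIs), 1.88-fold lower, where 11.9% of 9998 genes were called lower and 2.79% higher in that class and the median log2 ratio of all genes was -0.20.

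Tslp changed its direction with the comparator. LepR-like cells had 19.2 CPM in Graft_D40 (172 UMIs) and 9.91 CPM in Sham_D40 (187 UMIs), and 18.1 CPM in Graft_D19 (240 UMIs) and 29.2 CPM in Ctrl (194 UMIs). The 2 grafted libraries thus lay between the 2 ungrafted ones. Graft_D40 was 1.94-fold Sham_D40 (1.57 to 2.40) but 1.52-fold lower than Ctrl, and Sham_D40 was 2.95-fold lower than Ctrl. The Graft_D40 signal lay in matrix-high cells, at 20.9 CPM (168 UMIs), against 4.43 CPM in adipogenic-high cells (4 UMIs). The corresponding levels were 9.40 and 10.0 CPM in Sham_D40, 19.1 and 17.0 CPM in Graft_D19, and 30.3 and 28.8 CPM in Ctrl, so the subsets were close in those 3 libraries.

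Tnfsf13b was near the floor of detection in the sorted classes. LepR-like cells had 2.01 CPM in Graft_D40 (18 UMIs) and 2.07 CPM in Sham_D40 (39 UMIs), and 1.36 CPM in Graft_D19 (18 UMIs) and 2.41 CPM in Ctrl (16 UMIs). Endothelial-like cells had 4 UMIs in Graft_D40 and none in Sham_D40, and 1 each in Graft_D19 and Ctrl. The few haematopoietic-like cells that passed the sort were at 0.312 CPM in Graft_D40 (177 cells, 1 UMI) and 6.87 CPM in Sham_D40 (52 cells, 6 UMIs), and at 16.6 CPM in Graft_D19 (88 cells, 27 UMIs) and 8.77 CPM in Ctrl (29 cells, 3 UMIs). That class was not alike over libraries. The 10 listed myeloid markers summed there to 5011 CPM in Graft_D40 and 74296 CPM in Sham_D40, and 70453.5 CPM in Graft_D19 and 66392.5 CPM in Ctrl. The 6 listed B-cell markers summed to 314 CPM in Graft_D40 and 11.5 CPM in Sham_D40, and 179 CPM in Graft_D19 and 14.6 CPM in Ctrl. The origin of these cells was not tested. Chondrocyte-like cells, deep at a median of 24788 UMIs, held 53.6% of the Tnfsf13b UMIs of Graft_D40 at 2.13 CPM. Since Cd45+ cells were removed before sorting, these values do not measure the myeloid source of BAFF in the marrow.

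In endothelial-like cells 3 of the 6 genes were measured, and none was called for Graft_D40 over Sham_D40, where 7.48% of 10372 genes were called higher and 7.09% lower. Il15 was at 13.9 CPM in Graft_D40 and 11.6 CPM in Sham_D40 (ratio 1.20, 0.93 to 1.55), Flt3l at 21.5 and 17.3 CPM (1.24, 1.01 to 1.52), and Tslp at 9.20 and 6.23 CPM (1.48, 1.06 to 2.07). For Graft_D19 over Ctrl 2 of 3 were lower, against 7.75% of 10186 genes, and none was higher, against 19%. Il15 was at 11.1 CPM in Graft_D19 and 18.8 CPM in Ctrl, and Tslp at 6.63 and 12.5 CPM. Both were also lower in Sham_D40 than in Ctrl, by 1.62-fold for Il15 and 2.01-fold for Tslp, where 8.80% of 10174 genes were called lower and 20.1% higher. In Graft_D40 the endothelium itself was differently composed by marker score, with 284 sinusoidal-like and 775 arterial-like cells, against 758 and 422 in Sham_D40. The cluster led by Sema3g, Gja5 and Gja4 held only 152 Graft_D40 and 95 Sham_D40 cells. Most arterial-like cells therefore lay outside it, and the label need not mean arteries. A cluster led by Ramp3 and Piezo2 held 583 Graft_D40 and 133 Sham_D40 cells. Tslp was at 13.0 CPM in arterial-like and 2.93 CPM in sinusoidal-like cells of Graft_D40 (4.45-fold, 2.16 to 10.6), and at 9.35 and 5.38 CPM in those of Sham_D40 (1.74-fold, 0.98 to 3.03).

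The receptors of these factors were mostly not seen in the sorted cells. Of 10 listed, 2 were measured in LepR-like and 3 in endothelial-like cells, and none was called in the 6 comparisons made of them. Crlf2, the Tslp receptor chain, was at 65.8 CPM in LepR-like cells of Graft_D40 and 59.4 CPM in Sham_D40, and at 81.5 and 70.9 CPM in endothelial-like cells. Il15ra, which presents Il15 on the cell surface, was at 7.03 and 6.68 CPM in LepR-like and at 20.1 and 23.0 CPM in endothelial-like cells of Graft_D40 and Sham_D40. Il2rg transcript was at 53.5 CPM in sinusoidal-like cells of Graft_D40 and 54.6 CPM in those of Sham_D40, although the allele is deleted in all mice, and whether the counted 3' end lies outside the deletion was not tested. Cxcr5, the Cxcl13 receptor, had at most 0.159 CPM in LepR-like cells. Counting was on the mouse genome mm10, so receptors of human DOHH2 cells were not measured as such. Whether some DOHH2 reads were counted as mouse genes was not tested.

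Of 20 partner factors listed for lymphoid stroma, 13 were measured in LepR-like cells for Graft_D40 over Sham_D40, with 1 higher (Tnfsf11) and 3 lower (Kitl, Vcam1 and Icam1), where 6.46% of all genes were called higher and 3.73% lower. Between the ungrafted libraries, Sham_D40 over Ctrl, 3 of 12 were higher (Tnfsf11, Nfkb2 and Igf1) and 1 lower (Ccl19), against 26.5% and 10.7%. Tnfsf11 was at 131 CPM in Graft_D40 and 45.9 CPM in Sham_D40 (2.86-fold), and at 77.7 CPM in Graft_D19 and 28.7 CPM in Ctrl (2.70-fold). Sham_D40 was itself 1.60-fold Ctrl in this gene. Kitl, the stem cell factor, was at 1278 CPM in Graft_D40 and 2806 CPM in Sham_D40. Kitl and Vcam1 are themselves adipogenic-high markers, so their levels are tied to that split. Ccl19 was at 51.0 CPM in Graft_D40 and 64.7 CPM in Sham_D40, and at 68.7 CPM in Graft_D19 and 197 CPM in Ctrl. Of 6 interferon and NF-kappaB genes, 2 were higher in Graft_D40: the Cxcr3 ligands Cxcl9, at 67.9 CPM against 12.6 CPM in Sham_D40, and Cxcl10, at 43.0 CPM against 1.06 CPM, where 6.46% of all genes were called higher. Cxcl9 depended on the comparator, being 3.47-fold lower in Sham_D40 than in Ctrl (43.8 CPM). It was lower in endothelial-like cells of Graft_D40, at 87.8 CPM, against 142.8 CPM in Sham_D40, while Cxcl10 was higher there, at 74.1 against 12.0 CPM.

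In endothelial-like cells 12 of the 20 partner factors were measured for Graft_D40 over Sham_D40, with 3 higher (Bst1, Cd40 and Lgals1) and 2 lower (Vcam1 and Icam1), where 7.48% of all genes were called higher and 7.09% lower. Vcam1, the adhesion molecule that holds lymphoid cells on marrow endothelium, was at 109 CPM in Graft_D40 and 690 CPM in Sham_D40, 6.33-fold lower, and Icam1 was at 62.7 and 138.7 CPM. Vcam1 is itself a sinusoidal-like marker, and sinusoidal-like cells numbered 284 in Graft_D40 and 758 in Sham_D40. Its level in the pooled class is therefore tied to that split, and the part of composition in these ratios was not tested. Lgals1 was at 280 CPM in Graft_D40 and 110 CPM in Sham_D40. Bst1, a stromal cell surface enzyme that supports pre-B cells, was at 35.1 CPM in Graft_D40 and 4.96 CPM in Sham_D40, and Cd40 at 27.5 and 5.49 CPM.

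Markers of other blood cells moved in the same libraries. Summed over 10 myeloid markers, LepR-like cells had 13.0 CPM in Graft_D40 and 23.0 CPM in Sham_D40, and 36.2 CPM in Graft_D19 and 33.6 CPM in Ctrl, with Itgam at 0 in all 4. Summed over 6 erythroid markers the levels were 13.5 CPM in Graft_D40 and 208 CPM in Sham_D40, and 69.4 CPM in Graft_D19 and 262 CPM in Ctrl. Their part in the member levels was not tested.

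At thinned depth the genes were rarely detected together in a LepR-like cell, but each alone was also detected in a minority of cells. In Graft_D40, Il7 was detected in 241 of 1043 such cells and each other gene in 66 or fewer. Few joint detections therefore do not show that the genes kept apart, and the share under independent detection was not computed. At 2000 UMIs per cell, 62.9% of LepR-like cells in Graft_D40 showed none of the 6 and 4.79% showed more than 1, against 59.7% and 6.64% in Sham_D40, and 62.9% and 5.45% in Graft_D19 against 66.3% and 4.43% in Ctrl. Of cells with a thinned Cxcl13 UMI, 32.7% also had Il7 in Graft_D40 (20.7 to 46.7%), against 22.6% of cells without Cxcl13, and 51.9% in Sham_D40 (31.9 to 71.3%), against 27.5%. The shares were 33.3% against 24.9% in Graft_D19 and 20.7% (7.99 to 39.7%) against 17.5% in Ctrl, and the intervals with Cxcl13 reached the share without it in each library but Sham_D40. The thinned depth is equal for all these cells, but the sets with Cxcl13 held only 27 to 55 cells.

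Across 38 class-by-library profiles, which share libraries and therefore depth, the genes most like each member by Pearson r of log2(CPM + 1) among 9087 genes were as follows, given as a description. Cxcl13 was nearest to Vmp1 (0.84), Ccn5 (0.79) and Il1rn (0.79), and Il7 to Marc1 (0.97), Wdr86 (0.97) and Hmgcll1 (0.97). Il15 was nearest to Bmp4 (0.88), Cfb (0.87) and Fmo2 (0.86), and Flt3l to Enpp3 (0.86), Xdh (0.85) and Ksr1 (0.84). Tslp was nearest to Ifi211 (0.88), Ifitm3 (0.85) and Cript (0.85). Among the members the closest pairs were Cxcl13 with Il7 (0.75), Il15 with Flt3l (0.74) and Il15 with Tslp (0.73), and Tnfsf13b was not above 0.40 with any.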

How the data were processed

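The files held UMI count matrices (Cell Ranger 3.1.0 on mm10 per the submitters' processing notes; the matrix headers name 5.0.0). The authors' deposited counts were used as they stood; further filters before deposit are not given in the sources used here. Cells with at least 500 genes, 1000 UMIs and at most 10% mitochondrial UMIs were kept, and Scrublet in scanpy 1.11.5 removed 43 to 89 doublets per library. Each cell took the class with the highest marker score (gap 0.2 or more, at least 3 markers detected); kept cells that met this for no class stayed unassigned. Summed UMIs over class totals gave CPM. Intervals are exact Poisson, Clopper-Pearson and, for ratios, conditional binomial, checked on simulated data. With 1 library per group no test was run. Ratios of 1.5-fold or more with the interval off 1 were called at a mean of 5 CPM or more. Named genes were the members, listed partners, the 3 nearest profiles and the 10 leading genes of Cxcl13-positive cells. Members and lists were chosen with earlier results of these data known. Antibody counts in 2 libraries were not used here.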

Additional observations from a re-analysis of the deposited data

How the results depend on the processing

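No paired analysis was possible because each group is 1 library with no test. In LepR-like cells the counts of genes called for Graft_D40 over Sham_D40 (3) and Sham_D40 over Ctrl (3) kept within 1.5 times under every alternative run: Leiden clusters, a wider class gap, doublets kept, a wider cell filter, median-of-ratios scaling, equal weight per cell, leaving out the 10 cells with most UMIs, the other ungrafted comparator (for the graft), no minimum level, a 2-fold threshold and thinning. Tslp for Graft_D40 over Sham_D40, at 1.94-fold, is lost at 2-fold. For Graft_D19 over Ctrl in LepR-like cells the count of 2 became 1 under Leiden clusters, the wider filter, median-of-ratios scaling and equal weight, with Il7 lost each time, and 0 under the 2-fold threshold and thinning. In endothelial-like cells the count of 0 for Graft_D40 over Sham_D40 became 1 under Leiden clusters, equal weight and without 10 cells (Tslp), with no minimum level (Cxcl13) and thinned (Flt3l). The count of 2 for Graft_D19 over Ctrl there became 0 with Sham_D40 as comparator and with a 2-fold threshold, and 1 when thinned (Il15). With the other ungrafted comparator the log2 ratio turned round for Tslp in Graft_D40 LepR-like cells (-0.60), Il7 (-0.10) and Tslp (0.87) in Graft_D19 LepR-like cells, and Tslp in Graft_D19 endothelium (0.0899). Uncalled ratios also turned: Cxcl13 in Graft_D19 LepR-like cells went to 1.46 and became a call, and in Graft_D40 LepR-like cells Il7 went to 0.57 and Flt3l to 0.27, while in Graft_D40 endothelium Il15 went to -0.44 and Tslp to -0.44. The causes were not tested. Cxcl13 for Graft_D40 over Sham_D40 ranged from 3.31, with Ctrl as comparator, to 4.85, and Il15 from -1.28 to -0.88. Depth limits Tnfsf13b, Cxcl13 outside LepR-like cells and adipogenic-high cells of Graft_D40, which number 109.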

Other observations

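Cells that met the rule for no class numbered 537 in Graft_D40 and 189 in Sham_D40, and 321 in Graft_D19 and 313 in Ctrl. They enter none of the comparisons of marker classes between libraries above. They held Cxcl13 at 48.5 CPM in Graft_D40 (334 UMIs) and 1.12 CPM in Sham_D40 (2 UMIs), and at 9.70 CPM in Graft_D19 (25 UMIs) and 8.11 CPM in Ctrl (8 UMIs). Of the 52 kept cells of Graft_D40 with 10 or more Cxcl13 UMIs, 41 were LepR-like, 7 unassigned, 3 fibroblast-like and 1 of another class. Il7 in the unassigned cells was at 44.5 CPM in Graft_D40 and 71.8 CPM in Sham_D40, and at 60.5 CPM in Graft_D19 and 63.9 CPM in Ctrl. Tslp was at 13.7 CPM in Graft_D40 and 6.73 CPM in Sham_D40, and at 12.8 CPM in Graft_D19 and 13.2 CPM in Ctrl.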
